A study of Mus musculus with 2 samples.

Results

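The genes described here were the 4 Timp inhibitors (Timp1, Timp2, Timp3 and Timp4) and 6 Adamts proteases (Adamts1, Adamts2, Adamts4, Adamts5, Adamts9 and Adamts12). They were chosen by name as inhibitors and proteases of the lung matrix, with earlier results of these data known. They were found through the RefSeq accession of each non-control probe, which gave 14 probes for 10 genes. Of these probes, 13 were well above background on both arrays, and all 10 genes were measured, out of 15495 genes measured on both arrays and 20886 gene symbols with a probe. The study compared 1 whole-lung sample labelled as HSP27 (Hspb1) overexpressing transgenic on C57BL6/N with 1 labelled C57BL6/N, each 14 days after bleomycin at 1.25 mg/kg into the trachea, which injures alveoli and leads to scarring. Both samples were labelled male and 6 weeks old, and each was read on 1 one-colour Agilent array. Lung without bleomycin was not analysed here. The labels give neither the promoter and species of the transgene nor whether a sample came from 1 animal or a pool.

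Timps are small secreted proteins whose amino-terminal domain occupies the zinc-bearing active site of metalloproteinases and so blocks them. Adamts proteases are secreted zinc enzymes with thrombospondin repeats that hold them in the matrix, where they cut large proteoglycans such as versican and aggrecan, or trim procollagen. Of the Timps, Timp3 binds to the matrix and is the one best known for inhibiting Adamts proteases as well as matrix metalloproteinases (Mmps). In fibrotic lung both families are known for setting how matrix is laid down and removed.

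A value below is the processed signal of the scanner software, and a difference is log2 of the transgenic over the C57BL6/N signal after each array was divided by its own 75th percentile (1426 on the transgenic array and 1287 on the C57BL6/N array). Each group had 1 array, which limits the precision. Variation between animals was not measured and no test was made, so thresholds of 1.5-fold (0.58 on the log2 scale) and 2-fold describe size alone. The error given with a difference is the scanner software's own error estimate for the spots, which is technical. In probes printed in 10 spots, the difference between arrays varied from spot to spot with an SD of 0.15 (log2) in dim probes, 0.06 in those of middle signal and 0.05 in bright ones, with 105 probes in each of these 3 groups. Hspb1 itself read 53554 on the transgenic array and 41040 on the C57BL6/N array, a difference of 0.24 ± 0.20 (scanner error), so this mouse probe did not set the labelled transgenic sample clearly apart. Sex-linked transcripts went with the male label of the transgenic sample. They went against that of the C57BL6/N sample, where a transcript of female cells and Y-linked transcripts were both clearly detected. Of the Y-linked ones, Eif2s3y read 3338 on the transgenic array and 800 on the C57BL6/N array. The 2 probes of Xist, which female cells make from their inactive X chromosome, read 2.83 and 3.36 on the transgenic array, not well above background, and 521 and 330 on the C57BL6/N array, while the Y-linked Ddx3y read 2437 on the transgenic array and 508 on the C57BL6/N array. The part of this sex-linked difference in the results below was not tested.

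The annotated start regions of the members that were at least 1.5-fold apart are shown first, because they let 4 of the higher genes and the lower one be compared at the sequence level. RefSeq promoter entries of build GRCm38.p6 matched 8 of the 10 members (Adamts4 and Adamts5 had no match). The runs below are the 250 bases before the start of Timp1 (chrX:20869916-20870165, plus strand), Timp4 (chr6:115252206-115252455, minus strand), Adamts2 (chr11:50601835-50602084, plus strand), Adamts12 (chr15:11064523-11064772, plus strand) and Adamts9 (chr6:92943535-92943784, minus strand), written 5′ to 3′ with each CG pair in capitals.
Timp1: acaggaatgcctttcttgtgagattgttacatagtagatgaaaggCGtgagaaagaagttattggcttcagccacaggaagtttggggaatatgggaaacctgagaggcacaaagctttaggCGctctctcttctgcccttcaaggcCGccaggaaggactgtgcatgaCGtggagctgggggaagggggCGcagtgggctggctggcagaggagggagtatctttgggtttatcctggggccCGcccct
Timp4: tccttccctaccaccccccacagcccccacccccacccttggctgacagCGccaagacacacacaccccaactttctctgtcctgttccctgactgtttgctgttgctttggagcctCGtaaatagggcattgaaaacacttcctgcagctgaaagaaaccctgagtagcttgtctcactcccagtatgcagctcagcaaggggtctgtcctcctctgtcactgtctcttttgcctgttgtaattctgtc
Adamts2: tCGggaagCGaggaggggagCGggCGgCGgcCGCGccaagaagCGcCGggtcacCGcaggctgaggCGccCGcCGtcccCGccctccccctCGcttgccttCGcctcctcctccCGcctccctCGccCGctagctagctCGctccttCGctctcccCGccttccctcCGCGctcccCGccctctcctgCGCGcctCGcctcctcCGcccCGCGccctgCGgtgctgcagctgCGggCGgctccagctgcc
Adamts12: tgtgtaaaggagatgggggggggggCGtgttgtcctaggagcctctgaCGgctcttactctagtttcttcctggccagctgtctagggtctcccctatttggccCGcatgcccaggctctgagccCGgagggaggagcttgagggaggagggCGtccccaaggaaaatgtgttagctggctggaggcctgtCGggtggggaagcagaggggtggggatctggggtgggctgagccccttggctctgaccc
Adamts9: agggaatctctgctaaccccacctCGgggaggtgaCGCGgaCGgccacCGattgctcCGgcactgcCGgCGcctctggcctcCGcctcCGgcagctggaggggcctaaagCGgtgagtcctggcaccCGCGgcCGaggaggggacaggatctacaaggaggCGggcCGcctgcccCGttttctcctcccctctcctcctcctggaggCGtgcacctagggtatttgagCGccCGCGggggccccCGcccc
These 4 higher genes did not have a common base composition. The printed run of Timp4 held 2 CG pairs, those of Timp1 and Adamts12 held 6 each and that of Adamts2 held 34. That of Adamts9, the lower gene, held 22. Over the full windows, which add 50 bases after the start, G and C made up 55.0% in Timp1, 53.3% in Timp4, 62.0% in Adamts12, 77.3% in Adamts2 and 70.0% in Adamts9, against a median of 52.7% over 32851 promoters.

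Motif letters were searched on both strands of the same windows. The AP-1 motif TGANTCA was in none of the 8 member windows, against 7.81% of all promoters, and the STAT motif TTCNNNGAA was in none either, against 8.30%. A variant AP-1 motif, TGANTAA, chosen after the Timp1 sequence was seen, was in 10.6% of all promoters and in 1 member, Timp1. It lies 27 to 33 bases after the annotated start and stands in capitals in the following 30 bases (chrX:20870182-20870211, plus strand).
Timp1: ggtgggtggaTGAGTAAtgcgtccaggaag
The TATA box letters TATAAA were in 13.6% of promoters and in 1 member, Adamts1, at 32 to 27 bases before the start. These matches describe letters in a window and say nothing of a factor bound there.

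Of the 10 members, in the transgenic lung 5 were at least 1.5-fold higher (Timp1, Timp4, Adamts2, Adamts4 and Adamts12) and 1 was at least 1.5-fold lower (Adamts9). Among all 15495 measured genes, 10.2% passed 1.5-fold upward and 8.31% downward. The median difference of the members was 0.51, against -0.04 over all measured genes. At 2-fold, 2 members were higher (Timp1 and Adamts4) and 0 lower, against 3.81% and 1.87% of all genes. In RNA of whole lung, fewer cells of a type and less RNA per cell cannot be told apart. Both families held genes that were apart and genes that were not, as the plot of probe signals shows.

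**Figure D1:**
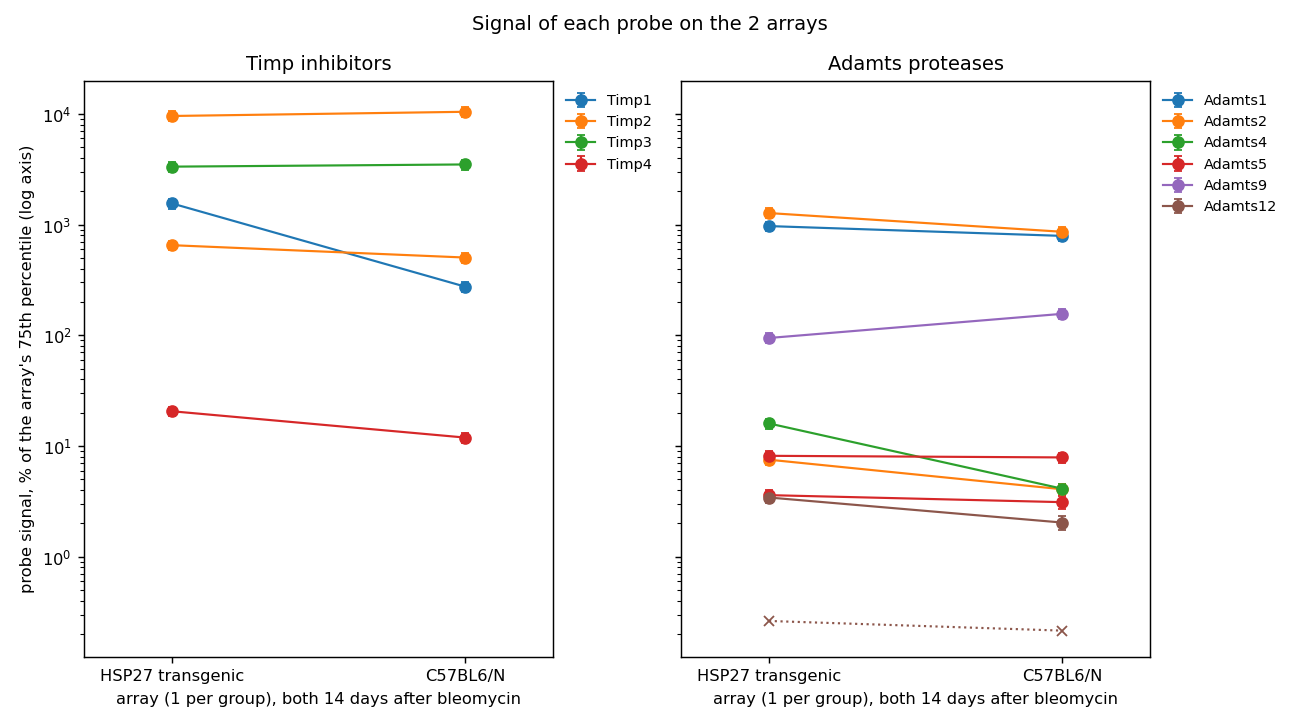
Signal of each of the 14 probes of the 10 genes as a percentage of the array's 75th percentile (log axis), on the HSP27 transgenic array (left) and the C57BL6/N array (right) of each panel. Bars are the scanner's error estimate, mostly smaller than the symbols, and the dotted line with crosses is the Adamts12 probe that was not well above background on either array, drawn without error. Timp1 has the steepest line, and the lines of Timp2, Timp3 and Adamts5 are nearly level.

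Timp1, the soluble and most readily induced inhibitor of the family, had the largest difference of the members. Its 1 probe read 22087 ± 2209 on the transgenic array and 3532 ± 353 on the C57BL6/N array (scanner error). After scaling it was 5.64-fold higher in the transgenic lung (2.50 ± 0.20 on the log2 scale), the 73rd largest difference upward of 15495 genes. Large differences were less common among bright genes. With measured genes put in 3 equal groups by mean signal, 1.55% of the brightest group, to which Timp1 belongs, were at least 2-fold higher.

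Timp1 lies on chromosome X, within the span of the synapsin gene Syn1 on the opposite strand. The Syn1 probe read 187 on the transgenic array and 189 on the C57BL6/N array, a difference of -0.16 ± 0.21, so the host gene did not share the large difference of Timp1. Of 536 measured X-linked genes, 7.28% passed 1.5-fold upward and 10.4% downward, with a median of -0.09.

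Timp4, the inhibitor known for its abundance in heart and fat, was a dim gene on both arrays. Its 1 probe read 294 ± 29.6 on the transgenic array and 153 ± 15.7 on the C57BL6/N array, a 1.73-fold higher value (0.79 ± 0.21). Most measured markers of both tissues were at least 2-fold higher on the transgenic array. Of 15 cardiac muscle markers, 11 were measured on both arrays, with a median of 3.33. Of these, 9 passed 1.5-fold upward and 1 downward, and a further 4 were detected above background in the transgenic lung only. The summed signal of those measured on both arrays was 3765% of the 75th percentile on the transgenic array and 668% on the C57BL6/N array. Myh6, a cardiac myosin chain, was at 7.09, Nppa, the atrial natriuretic peptide, at 5.55 and Myh7, another myosin chain, at -0.97. Of 10 adipose markers, 5 were measured on both arrays, all 5 at least 1.5-fold higher (median 2.32), another 4 were above background on the transgenic array alone and Lep was above background on neither. The summed signal of the 5 was 3193% on the transgenic array and 335% on the C57BL6/N array, with Cfd (adipsin) at 9.62 and Retn (resistin) at 5.27. With only the brightest probe of each gene, 4 adipose markers were at least 1.5-fold higher. The part of heart and fat RNA in the Timp4 difference was not tested. Timp4 lies within Syn2, on the opposite strand, and the 2 Syn2 probes were at 0.13 and 0.27.

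Timp2 and Timp3 were far above background on both arrays and differed little. Timp2, which both inhibits Mmp2 and helps membrane-bound Mmp14 to activate it, had 2 probes that pointed in opposite directions. The brighter read 136267 on the transgenic array and 134173 on the C57BL6/N array (-0.13 ± 0.20), the dimmer 9280 on the transgenic array and 6476 on the C57BL6/N array (0.37 ± 0.20). Their mean was 0.12, and no direction can be given for Timp2. Timp3, the matrix-bound inhibitor, read 47523 ± 4752 on the transgenic array and 44883 ± 4488 on the C57BL6/N array, a difference of -0.07 ± 0.20. Timp3 lies within the synapsin gene Syn3, whose 2 probes were not well above background on either array. The Timp inhibitors thus split into Timp1 and Timp4, which were higher, and Timp2 and Timp3, which differed by no more than about the scanner error on average.

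Adamts4, a protease that cuts aggrecan and versican and is induced by inflammatory cytokines in cartilage, had the largest difference of the proteases. Its 1 probe read 228 ± 22.9 on the transgenic array and 53.0 ± 5.86 on the C57BL6/N array, 3.88-fold higher in the transgenic lung (1.96 ± 0.22) and the 132nd largest difference upward of all measured genes. It belongs to the dimmest of the 3 groups by signal, where 6.89% were at least 2-fold higher.

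Adamts1, Adamts5 and Adamts9 share with Adamts4 the ability to cut versican, and they did not share its difference. Adamts9 was lower. It read 1348 ± 135 on the transgenic array and 2009 ± 201 on the C57BL6/N array, a difference of -0.72 ± 0.20, 1.65-fold lower in the transgenic lung. Adamts1 read 13806 ± 1381 on the transgenic array and 10160 ± 1016 on the C57BL6/N array (0.29 ± 0.20, 1.23-fold). Adamts5 signals were low on both arrays. Its 2 probes read 116 and 51.3 on the transgenic array and 101 and 40.0 on the C57BL6/N array, differences of 0.05 ± 0.21 and 0.21 ± 0.26. Adamts1 and Adamts5 are neighbouring genes on chromosome 16, and both were under 1.5-fold apart.

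Adamts2, the enzyme that removes the amino-terminal propeptide of procollagens, was higher at both of its probes. The brighter read 18096 ± 1810 on the transgenic array and 11070 ± 1107 on the C57BL6/N array (0.56 ± 0.20), the dimmer 107 ± 11.0 on the transgenic array and 52.3 ± 5.78 on the C57BL6/N array (0.89 ± 0.22). The mean was 0.72 ± 0.15, or 1.65-fold, and the brighter probe alone was just under 1.5-fold. Adamts12, a protease that cuts cartilage oligomeric matrix protein (Comp), lay close to background. Of its 2 probes, 1 was not well above background on either array and the other read 48.9 ± 5.61 on the transgenic array and 26.2 ± 3.70 on the C57BL6/N array, a difference of 0.75 ± 0.26. The lowest signal called well above background was 12.5 on the transgenic array and 11.9 on the C57BL6/N array. The Adamts12 difference was under 1.5-fold in 2 alternatives. It was 0.13 with normexp, which changes the background correction, the signal column and an added offset of 50 together, and 0.52 with no filter on dim probes, which averages in the probe at background. Timp4, Adamts2, Adamts9 and Adamts12 each lay within 1 scanner error of the 1.5-fold line, unlike Timp1 and Adamts4.

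**Figure D2:**
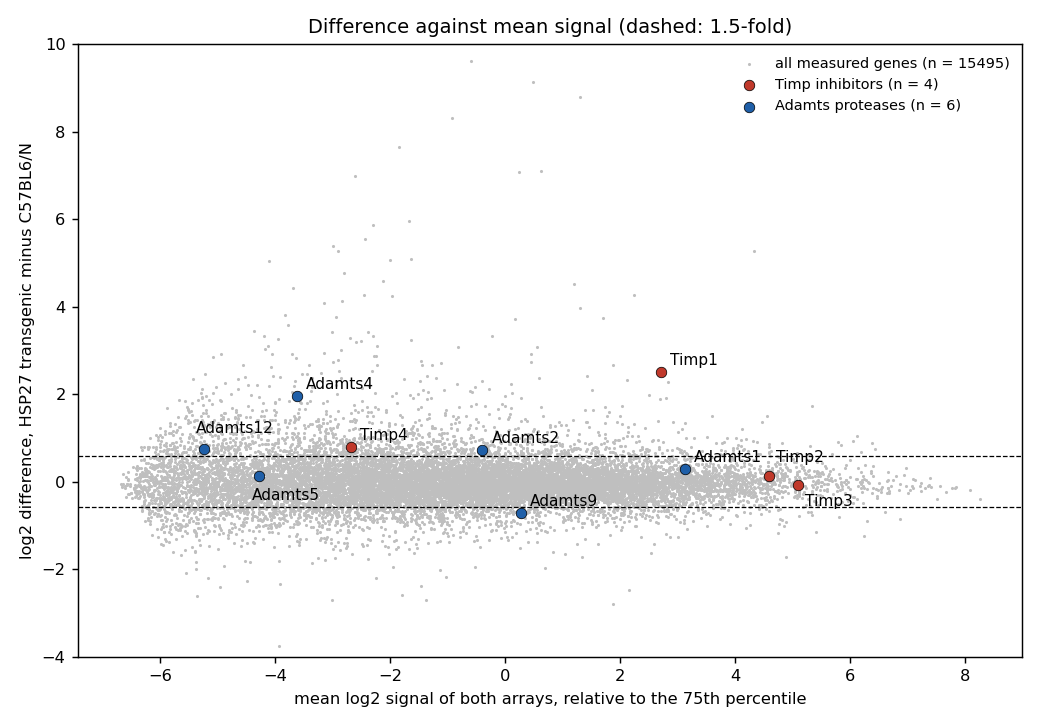
Log2 difference (HSP27 transgenic minus C57BL6/N) against the mean log2 signal of both arrays for all 15495 measured genes (grey), with the Timp inhibitors in red and the Adamts proteases in blue and dashed lines at 1.5-fold. Timp1 (2.50) stands among bright genes and Adamts4 (1.96) among dim genes, where the grey cloud is wider, while Adamts9 (-0.72) is the member below the lower line.

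The other members of the Adamts family were not higher as a group. Of 13 further Adamts proteases, 7 were measured on both arrays, 0 at least 1.5-fold higher and 2 lower (median -0.35). Adamts17 was at -1.47 ± 0.18 and Adamts6 at -0.63 ± 0.28. Adamts7, the closest relative of Adamts12 and also a protease of Comp, was at 0.58 ± 0.21, just under 1.5-fold. Adamts19 passed background on the transgenic array alone, and Adamts3, Adamts13, Adamts16, Adamts18 and Adamts20 on neither. Of 6 measured Adamts-like proteins, which carry the thrombospondin repeats without the protease, 0 were higher and 1 lower (median -0.15). That 1 was Papln (papilin), at -0.84 ± 0.19. The counts of the further Adamts proteases depended on the processing, with 0 to 2 higher and 1 to 5 lower.

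Substrates of these proteases differed in both directions. Of 11 measured proteoglycans and partners, 6 passed 1.5-fold upward and 2 downward (median 0.86). The highest were the small collagen-binding proteoglycan Fmod (fibromodulin, 1.90) and Comp (1.49 ± 0.24). The lowest were Bcan (brevican, -1.80) and Hapln1, a link protein that ties proteoglycans to hyaluronan (-0.98 ± 0.24). Comp and Hapln1 were dim. Comp read 126 on the transgenic array and 40.5 on the C57BL6/N array, and Hapln1 42.2 and 75.2 in the same order. Versican (Vcan), a large hyaluronan-binding proteoglycan, had 2 probes that differed. The brighter read 660 on the transgenic array and 299 on the C57BL6/N array (0.99 ± 0.20), the dimmer 165 on the transgenic array and 143 on the C57BL6/N array (0.06 ± 0.21). Their mean was 0.53 ± 0.15, under 1.5-fold, so the side of the line on which Vcan fell depended on the probe. Over the alternatives this list had 3 to 7 genes higher, with 3 under a stricter filter that leaves out the dimmest usable probes (median 0.53) and 4 with normexp (median 0.34). Of 8 measured procollagens and processing factors, 3 were higher and 1 lower (median 0.38). Col2a1, the cartilage collagen, was at 1.95 ± 0.32 but dim, at 76.2 on the transgenic array and 17.7 on the C57BL6/N array. Col1a2, a chain of type I collagen and a substrate of Adamts2, was at 0.88, and Pcolce2, an enhancer of procollagen processing, at -0.81. With the stricter filter or normexp, 2 genes of this list were higher.

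The enzymes that Timps inhibit were more often higher than lower. Of 20 Mmps and Adams, 15 were measured on both arrays, 8 at least 1.5-fold higher and 0 lower (median 0.65). The neutrophil collagenase Mmp8 was at 1.22 and the elastase of macrophages, Mmp12, at 1.11. Adam10 and Adam17, cell-surface sheddases inhibited by Timps, were at -0.24 and -0.33. Mmp10 passed background on the transgenic array alone, Mmp24 and Mmp28 on the C57BL6/N array alone, and Mmp7 and Mmp16 on neither. No Mmp or Adam of this list that was measured on both arrays had a difference as large as that of Timp1. For Mmp10 only a lower bound of 1.92 can be given, so it cannot be ranked against Timp1.

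Factors that activate, clear or bind these proteins lay on both sides of 0. Of 11 measured, 2 passed 1.5-fold upward and 2 downward (median 0.02). Pzp, a broad protease trap, was at 1.23 ± 0.25 but dim, at 70.7 on the transgenic array and 27.2 on the C57BL6/N array. Fibronectin (Fn1) was at 0.74. With the stricter filter or normexp, 1 gene of this list was at least 1.5-fold higher. Reck, a membrane-anchored inhibitor of Mmps, was at -0.87, opposite to Timp1, and Kdr, an endothelial growth factor receptor that Timp3 can bind, at -0.75. Furin and the related convertases Pcsk5, Pcsk6 and Pcsk7, of which furin removes the propeptide of Adamts proteases, were between 0.00 and 0.05.

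Cytokines known to induce Timp1 or Adamts genes, and the transcription factors AP-1 and STAT3 that act on many such targets, were listed for context. Of 9 measured cytokines, 2 passed 1.5-fold upward and 0 downward (median 0.44), namely Il6 at 1.03 ± 0.21 and oncostatin M (Osm), a cytokine of the same receptor family, at 0.85 ± 0.28. That count was 0 with normexp (median 0.19), 1 with the stricter filter and 3 with median scaling, quantile normalization and cyclic loess. Of 9 factors, 3 were higher and 0 lower (median 0.25). The highest were Junb, a subunit of AP-1, at 1.46 and Socs3, a feedback inhibitor induced by STAT3, at 1.34. With the stricter filter, 1 factor was higher.

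Markers of the cells that make these genes also differed between the arrays. Fibroblast and myofibroblast markers, of cells known to make Timp1 and Adamts2, were at least 1.5-fold higher for 8 of 15 and lower for 0 (median 0.67), with a summed signal of 25336% of the 75th percentile on the transgenic array and 19530% on the C57BL6/N array. Cthrc1, a marker of activated fibroblasts, was at 1.92 and Acta2, the myofibroblast actin, at 1.51. Other markers of this list lay below 0 by less than 1.5-fold, namely Npnt (-0.52), Inmt (-0.49), Postn (-0.31) and Tcf21 (-0.18). Smooth muscle and pericyte markers were higher for 7 of 10 and lower for 0 (median 1.04, summed signal 8576% on the transgenic and 3998% on the C57BL6/N array), with Cnn1 at 1.91 and Actg2 at 1.64. Acta2 was counted in both the fibroblast and the smooth muscle list, and Col1a1 and Col1a2 in both the fibroblast and the procollagen list. Monocyte and macrophage markers were higher for 8 of 10 and lower for 0 (median 0.78, 11068% on the transgenic and 6657% on the C57BL6/N array), with the subunits of complement C1q, C1qb and C1qa, at 2.41 and 1.74. Mesothelial markers were higher for 1 of 6 and lower for 0 (median 0.39, 3079% on the transgenic and 2372% on the C57BL6/N array), with Wt1 at 0.83. The part of these cell types in the member differences was not tested.

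Endothelial markers went the way of Adamts9, a gene that endothelial cells are known to express. Of 14 markers, 9 passed 1.5-fold downward and 0 upward (median -0.68), with a summed signal of 23026% of the 75th percentile on the transgenic array and 37749% on the C57BL6/N array. The receptor Tie1 was at -1.10 and the tight junction protein Cldn5 at -1.02. Kdr was counted both among these markers and among the binding partners above. Alveolar type 1 cell markers were lower for 3 of 7 and higher for 0 (median -0.49, 19903% on the transgenic and 27532% on the C57BL6/N array), with Cav1 at -1.08 and Clic5 at -0.84. Basal airway cell markers were higher for all 6 measured (median 3.41, 675% on the transgenic and 323% on the C57BL6/N array), with Krt5 at 5.87 and Krt15 at 4.59. That count was 5 with only the brightest probe of each gene. For Trp63, the mean of its 2 probe differences passed 1.5-fold upward. Its mean signal was nearly level, at 1906 on the transgenic array and 1903 on the C57BL6/N array. The part of these cells in the Adamts9 difference or in any other was not tested.

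**Figure D3:**
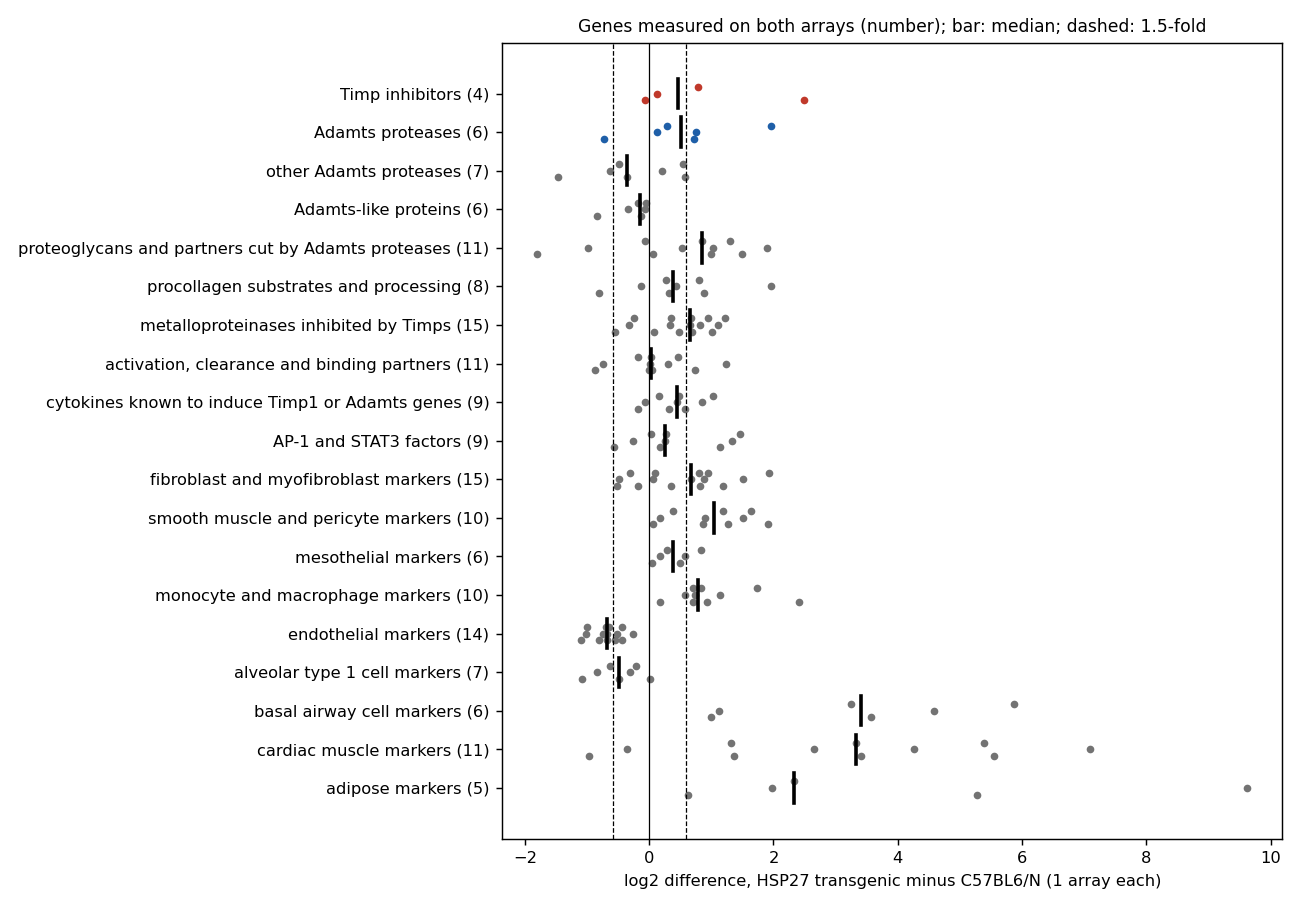
Log2 difference (HSP27 transgenic minus C57BL6/N) of each gene measured on both arrays, as points, for the Timp inhibitors (red), the Adamts proteases (blue) and 17 context lists (grey), with the number of genes in brackets, a bar at the median and dashed lines at 1.5-fold. Medians of the members (0.46 for Timps and 0.51 for Adamts) lie to the right of those of the other Adamts proteases (-0.35), and the cardiac, adipose and basal cell lists reach farther right than any member.

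The direction of 8 members was the same under every alternative that measured them. The exceptions were Timp2, at -0.13 with the brightest probe alone, and Adamts5, at -0.02 with normexp. Timp1 ranged from 2.50 to 2.55 over 9 alternatives and Adamts9 from -0.73 to -0.67. Adamts4 was at 1.27 with normexp and between 1.96 and 2.07 in the others that measured it.

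**Figure D4:**
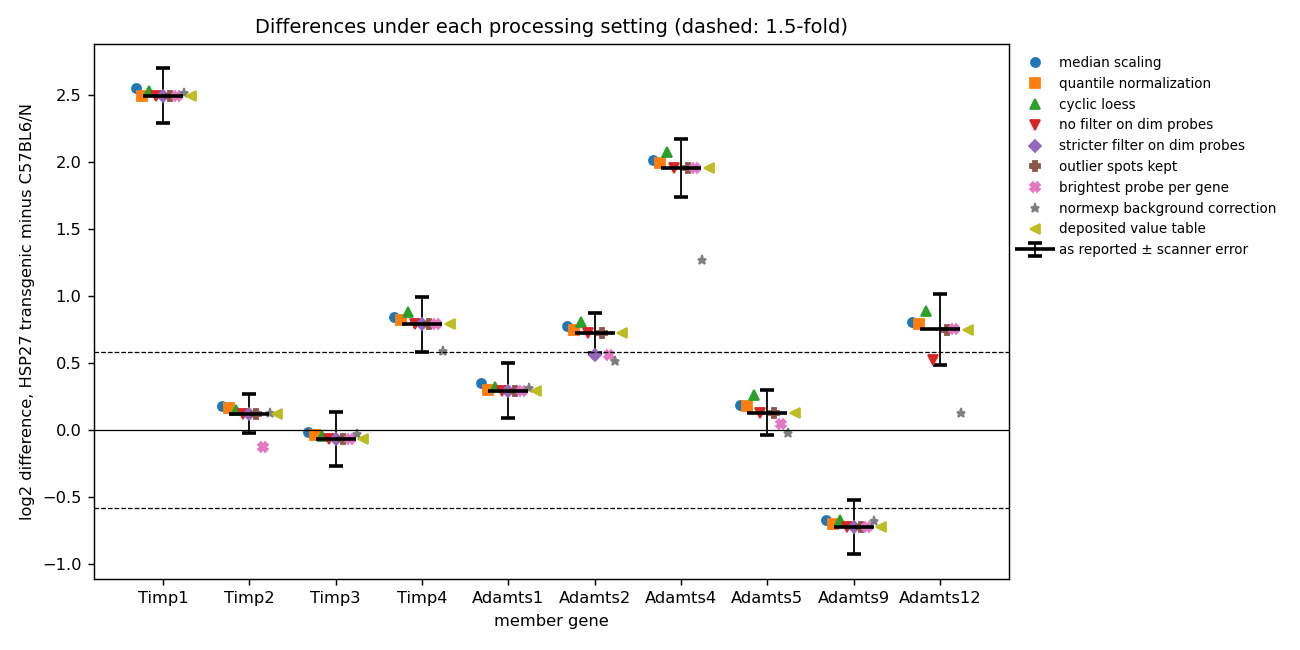
Log2 difference (HSP27 transgenic minus C57BL6/N) of each member as reported (black bar, with the scanner error) and under each of 9 processing alternatives (coloured symbols), with dashed lines at 1.5-fold. Timp1, Adamts1, Adamts9 and Timp3 hold their place, while the normexp symbols of Adamts4 (1.27) and Adamts12 (0.13) lie below the rest.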

How the data were processed

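Mouse whole-lung RNA of 1 HSP27 transgenic and 1 C57BL6/N sample was read on 1 Agilent array each. Per the file headers, the deposited files hold spot intensity from Feature Extraction 11.5.1.1, background-subtracted and detrended within the array, with error estimates, pixel medians and 0 or 1 flags. The deposited table of the series holds the same intensity (within 0.1% at all 39020 and 39022 single-spot probes compared on the transgenic and C57BL6/N array, column medians 118 and 111).

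Control and outlier spots were left out, signals taken to log2, spots averaged per probe and the 75th percentile over 39429 probes subtracted. On both arrays, usable probes (26387) were unsaturated, with at least 50% of spots well above background. A gene is the mean of its usable probes. Accessions matched a RefSeq table of GRCm38.p6 for 27508 probes. The array headers name mm9, so the table served for names, chromosomes and overlaps. The steps were tested on simulated data. No p-value was computed. All 10 members are named, with Hspb1 and up to 2 highest and 2 lowest genes past 1.5-fold per list. Vcan, Adamts7, Adam10, Adam17, the convertases and synapsins are named for function or position after their values were seen. Members and lists were chosen with earlier results of these data known. Tools were Python 3.11.15, numpy 2.4.6, pandas 2.3.3, matplotlib 3.10.9, R 4.3.3 and limma 3.58.1.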

Additional observations from a re-analysis of the deposited data

How the results depend on the processing

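Of the 9 alternatives, 8 gave values for Adamts4, Adamts5 and Adamts12, because the stricter filter on dim probes removed these genes, and 9 for the other members. No difference past 1.5-fold reversed. With the stricter filter, 2 members were at least 1.5-fold higher in place of 5 and 1 at least 2-fold higher in place of 2. Adamts4 and Adamts12 were no longer measured. Adamts2, left with its brighter probe, was at 0.56, as it was with the brightest probe per gene. That choice put Timp2 at -0.13 and left 4 members at least 1.5-fold higher. With no filter on dim probes 4 were higher too, with Adamts12 at 0.52. With normexp, which left out 7 spots whose local background reached their signal, 3 members were at least 1.5-fold higher, with Adamts2 at 0.52, Adamts4 at 1.27 and Adamts12 at 0.13. Its offset of 50 is added to signals of similar size in dim genes, which brings differences nearer to 0 by construction. The other 114 values for members moved by less than the scanner error, or by less than 1.5 times for counts. For the context lists, 425 values held and 34 moved. Over all genes, the 1.5-fold counts were 1582 higher and 1287 lower, against 2526 and 2080 with no filter and 986 and 682 with normexp. The 2-fold counts were 591 and 289, against 1195 and 736 with no filter, 383 and 185 with the stricter filter and 309 and 112 with normexp. Higher genes were 67.2% of those past 2-fold and 55.1% of those past 1.5-fold, against 77.3% and 66.5% after cyclic loess. No paired analysis was possible because each group has 1 array. Low signal over background limits Adamts12, Adamts5 and Adamts4.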
